A study of Mus musculus with 6 samples.

Results

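The genes described here build or attend the thin filament of the cardiac sarcomere. They are *Actc1*, *Tnnt2*, *Tnni3*, *Tnnc1*, *Tpm1*, *Tmod1*, *Lmod2*, *Actn2* and *Tnni3k*, chosen by gene symbol, and all 9 were found among the 21776 genes of the table. Stranded total RNA sequencing of 6 mouse hearts, 3 of them *Trdn-as* KO and 3 WT, measured their expression. The non-coding RNA *Trdn-as* is read antisense to *Trdn*, the gene of the calcium release protein triadin. In the KO mice, a polyA site placed by Cas9 in the first exon of *Trdn-as* in embryonic stem cells stopped its transcription, and chimeras were backcrossed to C57BL/6 mice and bred to homozygosity. The allele is therefore carried by every cell and is not limited to cardiomyocytes by its construction, although the series describes the loss as one of cardiomyocytes. The WT hearts carry no such insertion, and no treatment is named for either group. Age, heart region and the number of stem cell clones behind the KO line are not given in the sources used here.

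The thin filament is a polymer of actin along which tropomyosin lies. Troponin, a complex of the subunits T, I and C, sits on tropomyosin and moves it away from the myosin binding sites when calcium binds troponin C. Variants in most of these genes are known causes of inherited cardiomyopathy.

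The 6 libraries held an estimated 2.59 to 3.62 M counted reads, with a KO mean of 3.36 ± 0.235 M against 3.03 ± 0.435 M for WT (SD over 3 libraries each). KO replicate 1 was the deepest and WT replicate 1 the shallowest. The labels held: *Trdn-as* (listed as AC157017.2) had normalised read counts of 690, 773 and 688 in WT, against 1, 0 and 1 after the insertion, and *Trdn* had 2489, 2381 and 2551 in KO and 1541, 1541 and 1516 in WT. All 6 cardiomyocyte markers were above 0 in every library, and their summed level was 18323 to 19611 in KO and 19231 to 23416 in WT. Summed atrial markers were 436 to 628 in KO and 450 to 622 in WT. Of the 4 skeletal muscle markers in the table, *Myh2*, *Mylpf* and *Actn3* did not exceed a value of 5 in any library, and only *Ckm*, which the heart also expresses, was higher. The libraries come from separate hearts, as the study describes them, and the p-values measure the spread between these.

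How far reads can be assigned to one actin matters for what follows, since cardiac and skeletal actin are close copies. The coding sequences of *Actc1* (cardiac) and *Acta1* (skeletal) are each 1134 bases long and 86.2% identical in GENCODE transcripts, with 157 differing bases and a longest identical run of 29 bases. Reads were 75 bases long. In 8 of the 9 genes no 75-base window of the transcript used occurred in another gene. The exception was *Tmod1*, in which 39.3% of windows were shared with *Tstd2* on the opposite strand, and counting was strand-aware.

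Promoter sequence was read from RefSeq (GRCm38.p6), which held 10 entries for the 9 genes, as the 250 bases before each start. Motifs were searched on both strands. The CArG box, a site of serum response factor, was present in 1 of the 10 entries, that of *Actc1*, against 1.47% of 32851 promoters of the same length. CATTCC, the MCAT element read by TEAD factors, was present in 5 of the 10 entries, those of *Tnnt2*, *Tnni3k*, *Tnnc1*, *Tpm1* and *Tmod1*, against 12.6% of all promoters. TATAAA was found in 0 of the 10 entries, against 12.4% of promoters, and the MEF2 site in 0, against 2.92%, which says only that these letters are not in the window. The motif AGATAA of the zinc finger factor *Gata4* was found in 1 entry against 9.99% of promoters. The E-box, spelled CANNTG, was found in 8 of the 10 entries, of 7 genes, against 66.2%. The stretches below hold the CArG box of *Actc1* and the MCAT elements that lie upstream of every annotated start of their gene, with the motif in capitals.
Actc1, chr2:114052888-114052947, minus strand: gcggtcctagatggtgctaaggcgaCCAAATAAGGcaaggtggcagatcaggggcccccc
Tnnt2, chr1:135836274-135836333, plus strand: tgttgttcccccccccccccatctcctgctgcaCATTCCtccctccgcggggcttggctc
Tnni3k, chr3:155055408-155055467, minus strand: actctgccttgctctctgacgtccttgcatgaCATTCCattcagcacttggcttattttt
Tnnc1, chr14:31208227-31208286, plus strand: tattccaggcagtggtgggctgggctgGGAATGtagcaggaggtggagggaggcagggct
The first base of the motif lies 47 bases before the start in *Actc1*, 27 in *Tnnt2*, 28 in *Tnni3k* and 58 in *Tnnc1*, where it is read from the opposite strand. These matches are letters, not shown binding.

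The question put to the 9 genes was whether their RNA differed between KO and WT hearts. None passed the adjusted threshold of 0.05 in limma (adjusted p 0.85 to 0.92), against 4 of 13753 genes tested, or 0.0291%. All 9 had a log2 fold change below 0, where 49.4% of all tested genes did, and the values ran from -0.17 to -0.08 with a median of -0.14, against a median of 0.00 over all tested genes. At an unadjusted p under 0.05 there were 3 of them, *Tnnc1*, *Actn2* and *Tnnt2*, against 2.80% of all tested genes that were lower in KO at that level. Markers of cardiomyocytes outside the thin filament moved alongside: all 6 (*Myh6*, *Myl2*, *Myl3*, *Ryr2*, *Pln* and *Mb*) were below 0, at -0.17 to -0.15. All 6 also fell from WT replicate 1 to WT replicate 3, with rising depth, as 20.4% of all tested genes did. *Myh6* had 6643, 5806 and 5103 in these hearts and 4985, 5243 and 5390 in KO. The endothelial markers *Pecam1* and *Cdh5* fell in the same order in WT. The 3 endothelial markers lay at 0.0060 to 0.033 and the 2 leukocyte markers at 0.13 to 0.18, while 2 of 3 fibroblast markers (-0.095 to 0.087) and 4 of 4 blood markers (-0.38 to -0.13) were below 0. Of the smooth muscle markers 3 of 4 were below 0 (-0.17 to 0.41), and of the atrial markers 2 of 5 (-0.69 to 0.40). Summed levels of the endothelial markers were 2991 to 3450 in KO and 2978 to 3426 in WT, of the fibroblast markers 1727 to 1925 and 1778 to 2012, of the leukocyte markers 174 to 250 and 174 to 226, and of the blood markers 85 to 152 and 90 to 202. The parts of cell makeup and of library depth in the result were not tested. In bulk tissue fewer cardiomyocytes and less RNA per cardiomyocyte cannot be told apart.

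*Actc1* (ENSMUSG00000068614, chromosome 2 from 114047282 to 114052887) encodes the actin that makes up the cardiac thin filament. The 3 KO hearts gave it normalised read counts of 1184, 1223 and 1278, and the WT hearts 1594, 1363 and 1186. WT replicates 1 and 2 were above every KO heart, whereas WT replicate 3 lay at the level of KO replicate 1, so the groups overlapped. The means were 1228 ± 47.2 and 1381 ± 205 (SD, n = 3 each), a ratio of 0.890, with a log2 fold change of -0.16 (95% interval -0.32 to 0.0034) and an unadjusted p of 0.0545 in limma.

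The troponin subunits behaved alike. *Tnnt2*, troponin T, which ties the complex to tropomyosin (ENSMUSG00000026414, chromosome 1 from 135836354 to 135852260), had 1187, 1196 and 1264 in KO and 1552, 1357 and 1182 in WT. *Tnni3*, the inhibitory subunit (ENSMUSG00000035458, chromosome 7 from 4518305 to 4522528), had 704, 689 and 732 in KO and 887, 799 and 680 in WT. *Tnnc1*, the calcium sensor (ENSMUSG00000091898, chromosome 14 from 31208312 to 31211729), had 415, 407 and 433 in KO and 516, 470 and 429 in WT. In each of the 3 genes WT replicate 1 was the highest of the 6 hearts, WT replicate 2 came next, and WT replicate 3 lay among or below the KO hearts. The log2 fold changes were -0.16 (SE 0.07) for *Tnnt2*, -0.15 (SE 0.08) for *Tnni3* and -0.17 (SE 0.07) for *Tnnc1*, with unadjusted limma p-values of 0.0476, 0.0710 and 0.0327.

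*Tpm1*, the main tropomyosin of the heart (ENSMUSG00000032366, chromosome 9 from 67022590 to 67049406), had 1363, 1398 and 1380 in KO and 1640, 1442 and 1319 in WT. The KO hearts lay within the WT range, and the log2 fold change was -0.08 (SE 0.07).

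Filament length is set at the free end of the filament by *Tmod1*, tropomodulin, which caps it, and *Lmod2*, leiomodin, which lets it grow. *Lmod2* (ENSMUSG00000029683, chromosome 6 from 24597762 to 24605414) had 1170, 1100 and 1195 in KO and 1406, 1255 and 1059 in WT, and the lowest of the 6 values was again WT replicate 3. *Tmod1* (ENSMUSG00000028328, chromosome 4 from 46038935 to 46116032) had 840, 867 and 837 in KO and 923, 911 and 853 in WT, and the groups overlapped by 1 KO heart. The log2 fold changes were -0.09 (SE 0.08) for *Lmod2* and -0.08 (SE 0.06) for *Tmod1*, with unadjusted limma p-values of 0.239 and 0.192.

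*Actn2*, the alpha-actinin that anchors thin filaments in the Z-disc (ENSMUSG00000052374, chromosome 13 from 12269426 to 12340760), had 1970, 1944 and 1975 in KO and 2422, 2176 and 1933 in WT. The KO hearts lay close together, and the WT hearts spread from below to above them. The log2 fold change was -0.14 (SE 0.07) with an unadjusted limma p of 0.0420. *Tnni3k*, a cardiac kinase named for its binding to troponin I and not a part of the filament (ENSMUSG00000040086, chromosome 3 from 154786299 to 155055407), had 598, 612 and 601 in KO and 658, 624 and 633 in WT. It was the 1 gene of the 9 in which every KO heart was below every WT heart, against 4.44% of all tested genes, and its log2 fold change was -0.08 (SE 0.06).

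**Figure D1:**
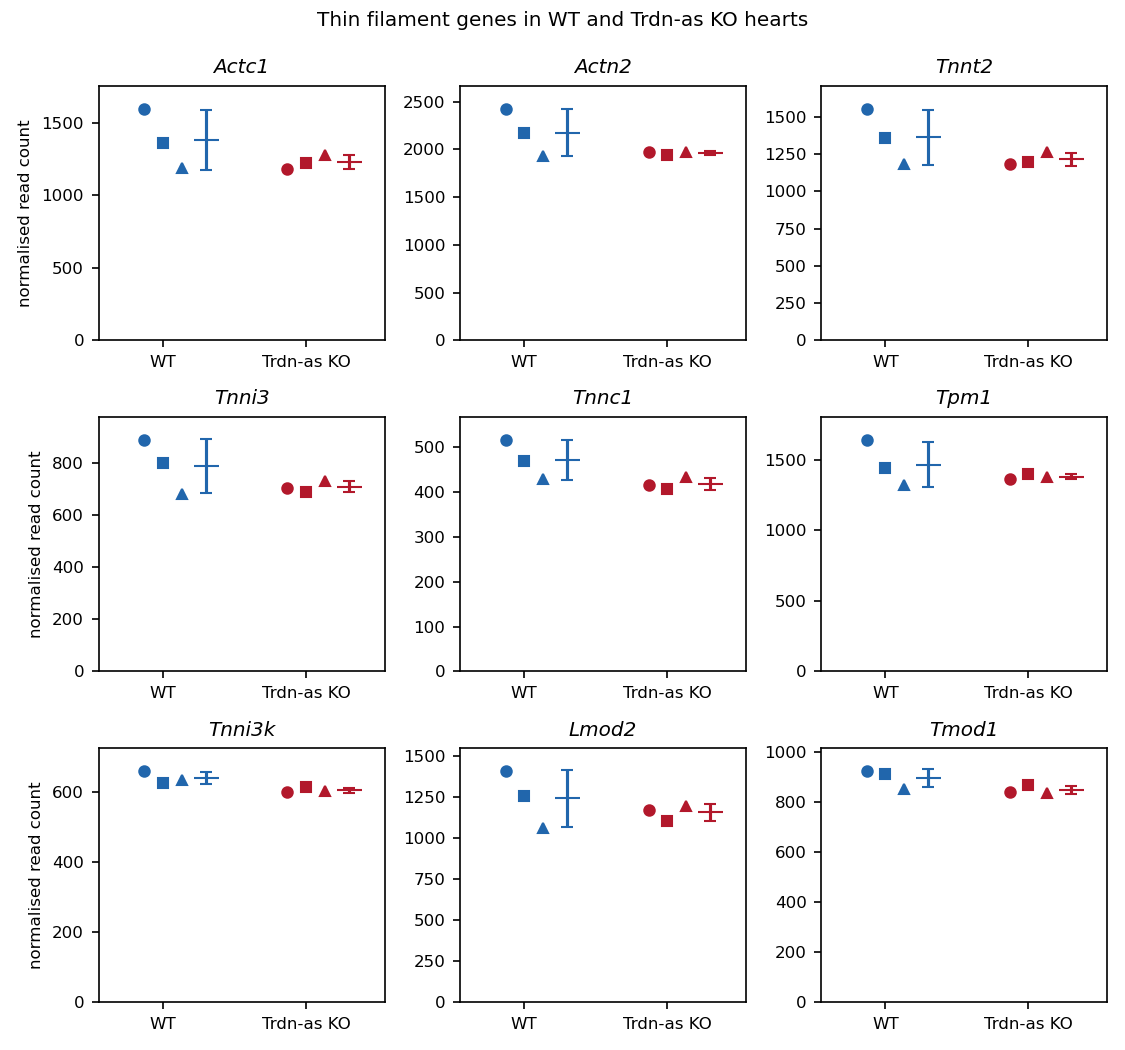
Normalised read counts (y axis, from 0) of the 9 genes in WT (blue) and *Trdn-as* KO (red) hearts. Circles, squares and triangles are replicates 1, 2 and 3 and the bars show mean ± SD (n = 3). WT replicate 1 is the highest value in all 9 panels, and *Tnni3k* alone shows no overlap.

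The WT hearts varied more than the KO hearts. The coefficient of variation was 14.8% in WT and 3.84% in KO for *Actc1*, 11.2% and 0.848% for *Actn2*, and 13.2% and 3.08% for *Tnni3*, where counting error alone gives 2.77%, 2.20% and 3.66%. Only *Tnni3k* (2.76%) and *Tmod1* (4.18%) were below 5% in WT. In 8 of the 9 genes, all but *Tnni3k*, the WT values stood in reverse order of depth, from highest in the shallowest library to lowest in the deepest, as in 20.4% of all tested genes. In KO, whose depths were closer, this order was seen in 2 of the 9, against 14.3%. The shallowest library held the highest value of its group for 9 of the 9 genes in WT, against 38.2% of all tested genes, and for 6 of the 9 in KO, against 29.7%.

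Multiplied by the size factor, the values became estimated reads, which for most of these genes differed less between the WT libraries than depth did. *Actc1* had an estimated 1360, 1293 and 1285 reads in KO and 1267, 1301 and 1308 in WT. From WT replicate 1 to WT replicate 3 the library grew 1.39-fold and the median tested gene 1.38-fold. Over the same step *Actc1* grew 1.03-fold, *Lmod2* 1.04-fold and *Tnnt2* and *Tnni3* each 1.06-fold. *Tmod1* grew 1.28-fold and *Tnni3k* 1.33-fold. The KO libraries differed less in depth. From KO replicate 3 to KO replicate 1 the library grew 1.14-fold, and the 9 genes grew between 1.06-fold (*Actc1*) and 1.15-fold (*Tmod1*). *Tnnt2* grew 1.07-fold, and *Tnni3* and *Tnnc1* each 1.1-fold, less than the library. *Actn2* and *Tnni3k* grew 1.14-fold, as the library did, with *Tpm1* at 1.13-fold and *Lmod2* at 1.12-fold.

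Between these WT libraries the 7 genes with the most reads per transcript base grew by 1.03- to 1.15-fold, less than the 2 others, though not in order of density, and in KO the 7 and the 2 were not separated. *Tnnt2* had 1.07 reads per base of its transcript, *Actc1* 0.884, *Tnni3* 0.821, *Tpm1* 0.752, *Actn2* 0.688, *Tnnc1* 0.618 and *Lmod2* 0.607, whereas *Tmod1* had 0.278 and *Tnni3k* 0.206. Per base of all annotated exons the order differs, with *Actc1* at 0.805 and *Tnnt2* at 0.166. Duplicate reads had been removed upstream with Picard. Depth moved with the groups, at a mean size factor of 1.07 in KO and 0.951 in WT, and the part of depth and density in the difference between KO and WT was not tested.

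**Figure D2:**
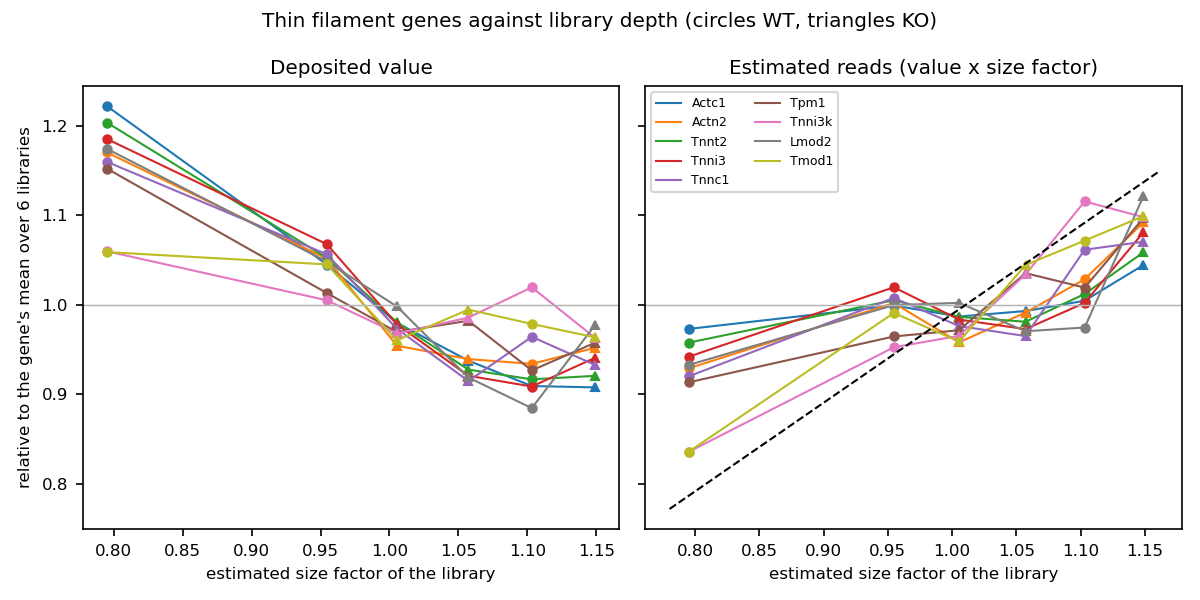
Each gene relative to its mean over the 6 libraries (y axis) against the library's estimated size factor (x axis), as the deposited value (left) and as estimated reads (right), with circles for WT and triangles for KO. The dashed line marks reads that grow in proportion to depth. At left the WT values of 8 genes fall with depth, while in KO 6 of the 9 genes are highest in the shallowest library, and at right *Tnni3k* and *Tmod1* stay closest to the dashed line between the WT libraries.

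With a correction for read density, which takes out whatever genes of like density have in common, a true difference included, the median log2 fold change of the 9 genes was -0.02, with 8 below 0 and 0 at an unadjusted limma p under 0.05. *Lmod2* moved to 0.04 and *Actc1* to -0.01 (95% interval -0.10 to 0.08), while *Tnnt2* was lowest at -0.11 (95% interval -0.23 to 0.01). The correction used the level per exonic kilobase, on which *Tnnt2* ranks last of the 9, so it was corrected as a gene of low density although it has the most reads per transcript base. Leaving out the deepest and the shallowest library together, chosen after seeing the data, gave mean size factors of 1.03 in both groups. The median was then -0.05, with 8 genes below 0 and *Tpm1* at 0.01. Single libraries also decided the value, since the median was -0.06 without WT replicate 1 and -0.23 without WT replicate 3, when 7 of the 9 were lower at an unadjusted limma p under 0.05, against 4.40% of all genes tested in that fit. The main count of 3 was 2 without KO replicate 3 and 0 when any of the 4 other libraries was left out, and 0 without the mean-variance trend. The lowest adjusted p of any of these genes under any alternative was 0.185.

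**Figure D3:**
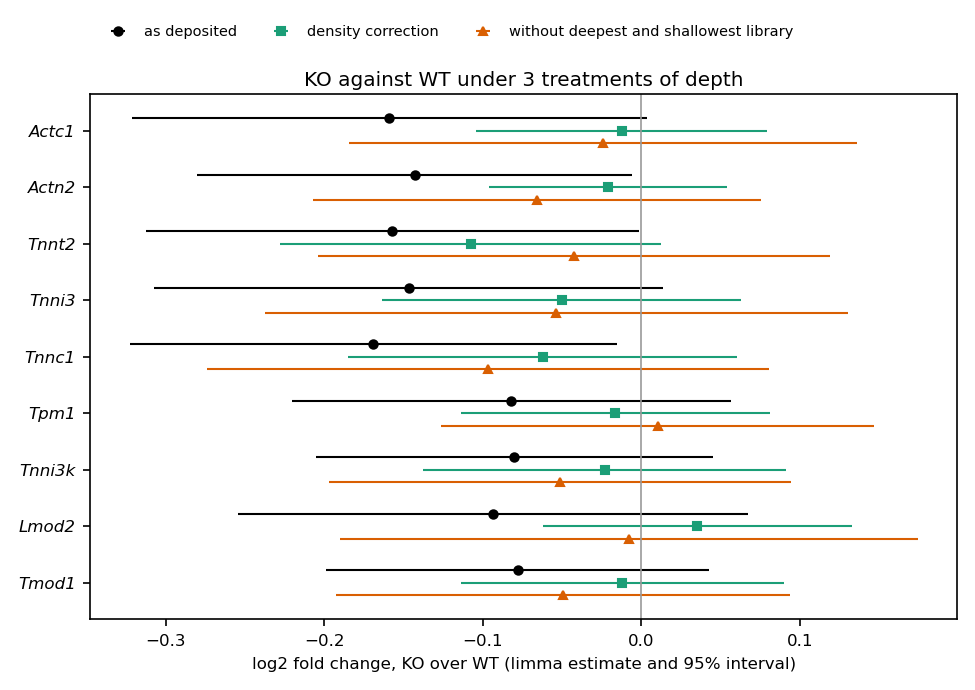
Log2 fold change of KO over WT (x axis) for each gene (y axis), as limma estimates with 95% intervals, from the deposited values (black circles), after density correction (green squares) and without the deepest and the shallowest library (orange triangles). From the deposited values all 9 estimates are below 0, and under both other treatments every interval includes 0.

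Together the 9 genes made up 0.2995%, 0.3012% and 0.3090% of the summed values in KO and 0.356%, 0.326% and 0.296% in WT. The means were 0.303 ± 0.00505% and 0.326 ± 0.0303% (SD, n = 3 each), a difference that did not pass an exact permutation test (two-sided p = 0.4, where 0.1 is the smallest p that 3 against 3 allow). The KO minus WT difference of -0.0230 points was -0.00788 without WT replicate 1, -0.0381 without WT replicate 3 (exact permutation p = 0.1) and -0.00549 with the density correction.

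Levels can be compared between genes only per length. Per kilobase of transcript, the WT level was 1136 ± 154 for *Tnnt2*, 938 ± 139 for *Actc1*, 865 ± 114 for *Tnni3*, 773 ± 85.3 for *Tpm1*, 722 ± 81.2 for *Actn2*, 654 ± 60.4 for *Tnnc1* and 628 ± 88.0 for *Lmod2* (SD, n = 3), and the range of each over the WT hearts overlapped that of its neighbour. Within each of the 3 WT libraries this order was the same, and in 2 of the 3 KO libraries *Lmod2* and *Tnnc1* changed places. *Tmod1* at 284 ± 11.8 and *Tnni3k* at 210 ± 5.81 lay apart from these and from each other. Over all annotated exons, retained introns included, the order changed, with *Actc1* highest at 806 per exonic kilobase and *Tnnt2* lowest at 166 (mean of 6 libraries), so the place of *Tnnt2* depends on the length used.

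Whether the RNA levels of these genes changed relative to each other was asked with 6 log2 ratios within a library. The ratios do not depend on scaling, but they can move where 2 genes grow unequally with depth. *Tnnt2* to *Tnnc1*, *Tnni3* to *Tnnc1*, *Tpm1* to *Actc1*, *Lmod2* to *Tmod1*, *Actn2* to *Actc1* and *Tnni3k* to *Tnni3* all overlapped between groups. In WT each of the 6 rose or fell in order of depth. *Tnni3k* to *Tnni3*, for example, was at -1.105, -1.031 and -0.78 in WT replicates 1, 2 and 3. The part of depth in the ratios was not tested. The largest KO minus WT difference was 0.08 for *Tpm1* to *Actc1* (-1.80, -1.81 and -1.89 in KO and -1.96, -1.92 and -1.85 in WT; log2, per exonic kilobase), with an exact permutation p of 0.2 and an adjusted p of 1 over the 6 ratios. Which ratio differed most depended on the libraries used. Without the deepest and the shallowest library *Tpm1* to *Actc1* was at 0.0345 and *Tnnt2* to *Tnnc1* at 0.0544, and without WT replicate 3 *Tnni3k* to *Tnni3* was at 0.163. The differences within troponin were 0.01 for *Tnnt2* to *Tnnc1* and 0.02 for *Tnni3* to *Tnnc1*.

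Skeletal and slow muscle use other members of the same families, and their share was compared in each family with an exact permutation test. *Acta1*, the skeletal actin, had 386, 342 and 334 in KO and 541, 406 and 567 in WT, so every KO heart was below every WT heart. The means were 354 ± 28.0 and 505 ± 86.4 (SD, n = 3 each), a ratio of 0.701. Its log2 fold change was -0.50 (95% interval -0.70 to -0.29), with an unadjusted limma p of 6.44e-05 and an adjusted p of 0.148, short of the threshold. Leaving out KO replicate 1 brought the adjusted limma p to 0.0184, and leaving out WT replicate 2 brought it to 0.00427. Omitting any other single library raised it instead. The adjusted limma p was then 0.896 (WT replicate 1 omitted), 0.787 (KO replicate 2 omitted), 0.624 (KO replicate 3 omitted) and 0.209 (WT replicate 3 omitted). Without the mean-variance trend it was 0.764. It was 0.574 with the density correction, where the log2 fold change was -0.42. Over all alternatives the log2 fold change of *Acta1* ran from -0.65 to -0.41. Unlike *Actc1*, *Acta1* was highest in the deepest WT library.

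As a share of the 2 sarcomeric actins, *Acta1* was 24.6%, 21.9% and 20.7% in KO and 25.3%, 23.0% and 32.3% in WT. The means of 22.4 ± 1.99% and 26.9 ± 4.88% (SD, n = 3 each) did not pass the test (exact permutation p = 0.2), and 1 KO heart lay among the WT hearts. The KO minus WT difference of -4.49 points was -1.76 without WT replicate 3 and -6.46 without WT replicate 2.

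In 3 families the share did not overlap between groups and was higher in KO, at the smallest p the design allows (exact permutation p = 0.1, adjusted p = 0.233 over 7 families). The troponin T share of *Tnnt1* (slow skeletal) and *Tnnt3* (fast skeletal) was 3.34%, 3.78% and 2.77% in KO and 1.52%, 2.58% and 2.31% in WT. It was mostly *Tnnt1*, which had 39, 41 and 35 in KO and 23, 35 and 23 in WT. The log2 fold change of *Tnnt1* was 0.51 (SE 0.21; unadjusted limma p 0.0265, adjusted p 0.851), and its groups overlapped. KO replicate 3 and WT replicate 2 both had 35 for *Tnnt1* and 1 for *Tnnt3*. The shares of these hearts therefore differed only through *Tnnt2*, at 1264 and 1357. Per exonic kilobase, the troponin T share came to 11.0 ± 1.74% in KO against 7.35 ± 1.84% for WT (SD, n = 3 each), with an exact permutation p of 0.1 again. *Tnnt1* lies 2.3 kb from *Tnni3* on chromosome 7, with no shared exon.

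The troponin I share of *Tnni1* (slow) and *Tnni2* (fast) was 1.68%, 1.29% and 1.61% in KO and 1.00%, 0.745% and 0.730% in WT. *Tnni2* had 10, 8 and 10 in KO and 6, 6 and 5 in WT, and *Tnni1* had 2, 1 and 2 in KO and 3, 0 and 0 in WT, so both stayed below the level at which genes were tested. Their sum was the same in KO replicate 2 and WT replicate 1. The shares of these hearts therefore differed only through *Tnni3*, at 689 and 887. *Tnni1* is the troponin I of the fetal heart, and *Tnni3* held over 98% of troponin I values in every library.

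The tropomyosin share of *Tpm2* and *Tpm3* was 15.3%, 15.6% and 15.7% in KO and 13.5%, 14.3% and 15.2% in WT. *Tpm2* had 78, 72 and 75 in KO and 87, 74 and 70 in WT, and *Tpm3* had 169, 186 and 181 in KO and 169, 167 and 167 in WT, with log2 fold changes of -0.03 (SE 0.14) and 0.09 (SE 0.09). In WT the share was higher at greater depth, where the *Tpm1* value was lower, and the part of depth in it was not tested. The difference of 1.17 points was 0.748 without WT replicate 1. Of *Tpm3*, 53.3% of windows recur in other genes, so its values can be too low.

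In the other families the groups overlapped. *Lmod3* made up 32.1 ± 1.64% of leiomodin in KO and 32.0 ± 1.32% in WT, and *Tmod4* 9.69 ± 1.49% of *Tmod1* plus *Tmod4* in KO and 9.83 ± 0.760% in WT (SD, n = 3 each; exact permutation p = 1 for both). *Actn3* did not exceed a value of 3 in any heart. *Tnnc2* was not analysed here.

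**Figure D4:**
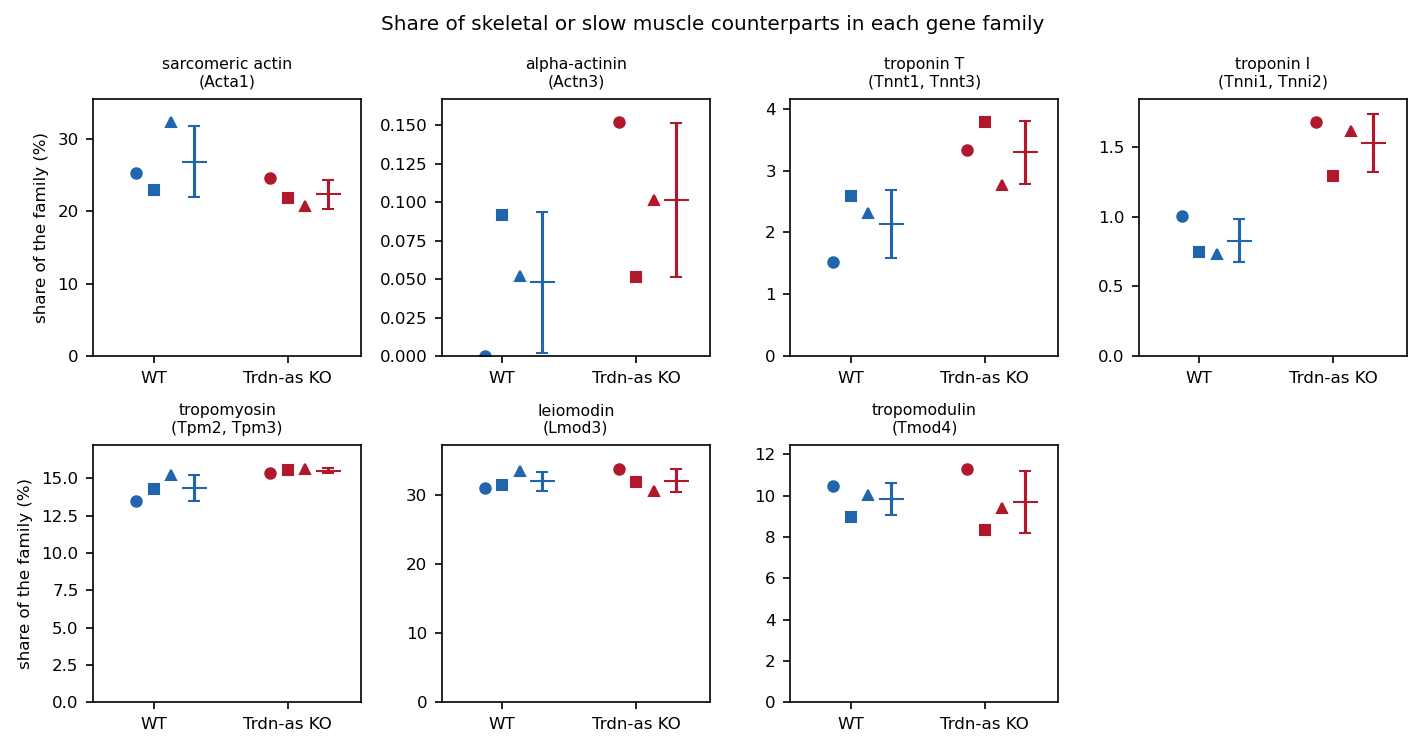
Share of the skeletal or slow muscle counterparts (named in brackets) in each gene family (y axis, percent, from 0) in WT (blue) and *Trdn-as* KO (red) hearts, with circles, squares and triangles for replicates 1, 2 and 3 and bars for mean ± SD (n = 3). Troponin T, troponin I and tropomyosin show no overlap between groups, whereas the other 4 families overlap.

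Further genes of the pathway were counted by list. Of 15 tested relatives of the 9 genes (other actins, alpha-actinins, troponins, tropomyosins, leiomodins and tropomodulins), KO was lower in 9 and higher in 6 (49.4% of all tested genes were lower). Their median log2 fold change was -0.01, and 0 passed the adjusted threshold in limma or limma-voom, against 0.0291% of all genes. At an unadjusted limma p under 0.05, *Acta1* was lower (2.80% of all genes were) and *Tnnt1* higher (2.94% were). Every KO heart was below every WT heart in 2 of the 15, *Acta1* and *Acta2*, against 4.44% of all tested genes. In 1 of them, *Actn1*, every KO heart was above every WT heart, as in 638 of 13753 tested genes. Of 19 genes for thin filament assembly and actin turnover, 15 were lower and 4 higher, where 49.4% of all tested genes were lower, and the median was -0.07. Of these 0 passed (0.0291% of all genes did), and *Daam1* alone was lower at an unadjusted limma p under 0.05 (2.80% of all genes were). Every KO heart was below every WT heart in 3 of the 19, *Nebl*, *Capzb* and *Daam1*, against 4.44% of all tested genes. *Nebl*, nebulette of the Z-disc, had 2664, 2487 and 2593 in KO and 2802, 2775 and 2683 in WT (log2 fold change -0.09, SE 0.05, and -0.041 with the density correction), without overlap. *Nrap*, a scaffold of myofibril assembly, was at -0.11 (SE 0.07) and *Cfl2*, the muscle cofilin that severs actin filaments, at -0.09 (SE 0.07). *Nrap* was at -0.20 without WT replicate 3, -0.020 without WT replicate 1 and -0.012 with the density correction, and *Cfl2* at -0.15 without KO replicate 1, -0.14 without WT replicate 3, -0.037 without KO replicate 2 and -0.038 with the density correction.

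*Daam1*, a formin that elongates actin filaments and was picked after its values were seen, had 1257, 1152 and 1190 in KO and 1414, 1339 and 1291 in WT. The groups did not overlap, and the log2 fold change was -0.17 (SE 0.06; unadjusted limma p 0.00860, adjusted p 0.772). With the density correction it was -0.12.

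Of 10 transcription factors that act on sarcomere genes, 7 were lower and 3 higher, against 49.4% of all tested genes lower, with a median log2 fold change of -0.095. Every KO heart was below every WT heart in 2 of the 10, *Nkx2-5* and *Tead1*, against 4.44% of all tested genes. Of the 10, 0 passed in either tool, and *Myocd* and *Nkx2-5* were lower at an unadjusted limma p under 0.05, against 2.80% of all genes. *Srf*, serum response factor, which binds the CArG box, had 297, 278 and 237 in KO and 326, 282 and 268 in WT, at -0.11 (SE 0.09), which was -0.018 without KO replicate 3, -0.029 without WT replicate 1, -0.18 without KO replicate 1 and -0.17 without WT replicate 3. *Myocd*, myocardin, its cardiac coactivator, had 799, 655 and 648 in KO and 880, 773 and 776 in WT, with a log2 fold change of -0.21 (SE 0.08; unadjusted limma p 0.0125, adjusted p 0.807), and 1 KO heart lay among the WT hearts. *Myocd* was at -0.31 without KO replicate 1 and -0.15 without WT replicate 1. Its unadjusted limma p was 0.0680 without KO replicate 2, 0.0808 without KO replicate 3 and 0.0897 without WT replicate 1. *Nkx2-5*, a cardiac homeobox factor picked after its values were seen, had 91, 76 and 89 in KO and 112, 116 and 96 in WT, without overlap, at -0.34 (SE 0.13; unadjusted limma p 0.0147, adjusted p 0.807). The unadjusted limma p of *Nkx2-5* was 0.0717 without KO replicate 2 and 0.0718 without WT replicate 2. *Tead1*, of the factors that read the MCAT element and likewise picked, had 1583, 1677 and 1699 in KO and 1704, 1838 and 1749 in WT, without overlap, at -0.09 (SE 0.05).

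The genes outside the list whose values ran most like the mean of the 9 across the 6 hearts, among those with a mean of at least 100, were *Cox7b* (Pearson r 0.999), *Atp5c1* (0.998), *Pdha1* (0.998), *Hadha* (0.998) and *Lpl* (0.997). These encode mitochondrial enzymes and subunits and, for *Lpl*, lipoprotein lipase. These r values are over 6 points that share library depth, and each of these 5 genes was highest in WT replicate 1, the shallowest library. *Cox7b* had 323, 321 and 336 in KO and 416, 368 and 321 in WT.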

How the data were processed

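Total RNA of 3 KO and 3 WT hearts was sequenced with 75-base single-end reads from a stranded kit. According to the study's methods and processing notes, the authors trimmed reads with Trimmomatic 0.39, aligned them to GRCm38 with STAR 2.6.1d, removed duplicates with Picard 2.21.1 as well as multi-mapping, ribosomal and mitochondrial reads, counted exonic reads per gene on the correct strand with featureCounts 1.6.5, leaving out reads of several genes, and normalised with DESeq2 1.18.1. The deposited score of each gene is its count over the size factor of the library, as a rounded whole number; raw counts were not used here. Rounding and the unknown raw counts keep count models from being used.

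Size factors were estimated from the gaps and repeats that rounding leaves among values under 1000, and estimated reads are the value times that factor. For KO the factors were 1.149, 1.0572 and 1.0054, and for WT 0.7951, 0.9546 and 1.1032, in order of replicate number. Counting error covers the sampling of such reads alone, as no molecular identifiers were used. Genes with a mean of at least 10 (13753 of 21776) were tested on log2(value + 1) with limma 3.58.1 (R 4.3.3; mean-variance trend, two-sided, Benjamini-Hochberg over all of them, threshold 0.05). A fold change on this scale understates that of low genes. A count test had been the choice for raw counts. Shares and ratios were tested by exact permutation over samples (Python 3.11.15). The density correction subtracted, per library, a loess (span 0.3) of the deviation from the gene mean on the level per exonic kilobase. Exons came from GENCODE M21 (99.8% of gene identifiers). Scripts were tested on simulated data. A sequence comparison of the sarcomeric actins is not reported here in full.

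Genes named are the 9 members, listed genes past the adjusted threshold, *Acta1*, *Tnnt1*, *Tnni1*, *Tpm2*, *Tpm3*, *Nebl*, *Cfl2*, *Nrap*, *Srf* and *Myocd*, the family counterparts, *Trdn-as*, *Trdn*, and the 5 genes most like the members' mean. *Daam1*, *Capzb*, *Nkx2-5*, *Tead1*, *Acta2*, *Actn1*, *Pecam1* and *Cdh5* were named outside this rule, after their values were seen. Members and lists were chosen with earlier results of these data known. Alternatives were another pseudocount (0.1), other filters, limma-voom, limma without trend, median-of-ratios and total scaling, the density correction, a replicate block and leaving out each library. Leaving out the deepest and the shallowest library together and a size factor covariate were added after seeing the data.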

Additional observations from a re-analysis of the deposited data

How the results depend on the processing

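The number of members lower in KO was 7 to 9 in every alternative run. The members' share of the library, which library scaling cannot change, stayed lower in KO with any 1 library left out and with the density correction. It was not computed without the deepest and the shallowest library, nor with the size factor covariate. The count of genes past the adjusted threshold in limma (4) was 2 with at least 10 in every sample, 1 without the trend, 2 without the deepest and the shallowest library, and 2 to 32 when 1 library was left out. Omitting KO replicate 1 gave 32, omitting WT replicate 3 gave 7, and omitting either KO replicate 2 or WT replicate 1 gave 2. The members' median (-0.14) was -0.0210 with the density correction, -0.0493 without the deepest and the shallowest library, -0.0176 with the size factor covariate, and -0.23 to -0.06 when 1 library was left out.

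*Lmod2* turned to 0.0352 with the density correction and 0.0408 with the covariate, and ran from -0.20 to 0.0018 when 1 library was left out. *Tpm1* turned to 0.0103 without the deepest and the shallowest library and 0.0244 with the covariate, with -0.16 to 0.0012 when 1 library was left out. *Tpm2* turned to 0.0296 and 0.0618 under these 2 settings, with -0.097 to 0.0579. The other 7 members stayed below 0 in all 17 alternatives. With 1 library left out, *Actc1* ran from -0.26 to -0.050, *Actn2* from -0.23 to -0.063 and *Tnnt2* from -0.26 to -0.060. Likewise *Tnni3* ran from -0.25 to -0.058, *Tnnc1* from -0.24 to -0.10, *Tnni3k* from -0.096 to -0.058 and *Tmod1* from -0.11 to -0.056. Of the ratios, none of which passed the test, *Lmod2* to *Tmod1* turned to 0.0414 and *Actn2* to *Actc1* to -0.0415 without the deepest and the shallowest library. Leaving out 1 library gave -0.0896 to 0.0579 and -0.0128 to 0.0405 for these, -0.0203 to 0.0430 for *Tnnt2* to *Tnnc1*, -0.0137 to 0.0448 for *Tnni3* to *Tnnc1* -0.00030 to 0.16 for *Tnni3k* to *Tnni3* and 0.0516 to 0.108 for *Tpm1* to *Actc1*. The share differences ran from -0.78 to 0.85 points for *Lmod3* and from -0.95 to 0.53 points for *Tmod4*. The cause of these moves was not tested.

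Same-numbered KO and WT samples did not deviate together (r = 0.048, -0.068 and -0.028), so the numbers are not taken as pairs. With the replicate block the count was again 4, and 2 of the 9 members had an unadjusted limma p under 0.05.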
